A study of Mus musculus with 9 samples.

Results

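The genes described are *Magel2*, *Ndn*, *Peg3*, *H19*, *Dlk1*, *Meg3*, *Mest*, *Cdkn1c*, *Plagl1* and *Grb10*, which are 10 of the 55471 genes listed for each culture. All of them are imprinted, and many act in fetal growth. They were selected by name, as genes of an imprinted network, after *Magel2* had been seen to be lost in Ad-OSCAR-infected chondrocytes, so the values of Ad-OSCAR against Control are given below as a description without p-values. RNA had been sequenced from 9 cultures of primary articular chondrocytes of postnatal day 5 wild-type mice, taken from the femoral condyles and tibial plateaus, with 3 cultures in each of 3 groups. The Control cultures (Ad-Control in the study's methods) received a control adenovirus, the Ad-OSCAR cultures an adenovirus that makes cells express OSCAR, a collagen receptor, and the Ad-OSCAR + 5-ASA cultures the OSCAR virus followed by 5-aminosalicylic acid, an anti-inflammatory drug. All plates were coated with COLpep, a collagen peptide that binds OSCAR, and no group carried a mutant allele. The annotations give an infection of 2 h at 400 MOI after 3 days of culture, and 36 h between infection and drug, while the methods give 800 MOI, 2 days, and 10 µM 5-ASA for an additional 24 h.

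An imprinted gene is read from one parental copy, which is set by DNA methylation placed in the egg or sperm. Such genes lie in clusters that share control elements, and paternally expressed genes such as *Peg3*, *Mest*, *Plagl1* and *Dlk1* are often set beside maternally expressed ones such as *H19*, *Cdkn1c*, *Meg3* and *Grb10*. They are strongly expressed before birth and around it, and in many organs decline as growth slows. These libraries do not tell the parental copies apart, so the values are totals of both.

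The annotation (GENCODE M21) places the members in several regions of the mouse genome GRCm38. *Magel2* (chr7:62377010-62381640, plus strand) and *Ndn* (chr7:62346569-62350262, plus strand) are intronless neighbours in the Prader-Willi region, 26.75 kb apart. *Peg3* lies at chr7:6703892-6730431 on the minus strand. *H19* (chr7:142575529-142578143) and *Cdkn1c* (chr7:143458339-143461050), both on the minus strand, are 880.2 kb apart in the distal part of the same chromosome. *Dlk1* (chr12:109452823-109463336) and *Meg3* (chr12:109541001-109571726) lie on the plus strand with 77.67 kb between them. *Mest* is at chr6:30723547-30748465, *Plagl1* at chr10:13060504-13131694 and *Grb10* at chr11:11930508-12038683.

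Promoter windows (250 bases before to 50 after a start, RefSeq, GRCm38.p6) were found for 8 of the 10 members, in 12 windows. Those of *Magel2* and *Ndn* are shown because the neighbours differed in response, and those of *Peg3* and *Mest* because these genes were among the members furthest below Control. Capitals mark CG, the dinucleotide that carries the methylation of imprinting.
*Magel2*, chr7:62376729-62377028, plus strand: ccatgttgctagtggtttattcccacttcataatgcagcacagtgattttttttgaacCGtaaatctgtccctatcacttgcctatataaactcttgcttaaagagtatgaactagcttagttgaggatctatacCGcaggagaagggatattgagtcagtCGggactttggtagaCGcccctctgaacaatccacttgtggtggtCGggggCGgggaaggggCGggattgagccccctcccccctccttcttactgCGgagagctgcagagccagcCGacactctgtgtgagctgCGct
*Ndn*, chr7:62348027-62348326, plus strand: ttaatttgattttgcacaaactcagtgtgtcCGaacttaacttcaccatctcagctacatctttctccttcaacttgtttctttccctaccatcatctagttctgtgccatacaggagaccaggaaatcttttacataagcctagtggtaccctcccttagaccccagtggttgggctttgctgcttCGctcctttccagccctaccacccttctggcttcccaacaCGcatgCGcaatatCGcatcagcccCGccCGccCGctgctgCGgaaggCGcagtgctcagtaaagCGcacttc
*Peg3*, chr7:6730370-6730669, minus strand: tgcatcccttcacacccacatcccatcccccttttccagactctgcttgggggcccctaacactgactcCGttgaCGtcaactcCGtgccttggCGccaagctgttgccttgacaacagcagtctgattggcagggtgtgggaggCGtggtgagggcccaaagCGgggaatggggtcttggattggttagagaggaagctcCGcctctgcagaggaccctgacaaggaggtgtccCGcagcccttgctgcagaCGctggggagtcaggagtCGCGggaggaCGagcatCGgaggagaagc
*Mest*, chr6:30737800-30738099, plus strand: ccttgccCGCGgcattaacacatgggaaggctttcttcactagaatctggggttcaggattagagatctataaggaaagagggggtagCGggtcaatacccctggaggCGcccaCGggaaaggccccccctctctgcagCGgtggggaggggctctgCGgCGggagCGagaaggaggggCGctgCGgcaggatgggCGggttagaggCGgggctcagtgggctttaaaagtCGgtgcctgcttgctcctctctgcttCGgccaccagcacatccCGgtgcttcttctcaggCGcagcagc
The *Magel2* window held 10 CG and the *Ndn* window 11, and both had 51.0% G and C, so by these counts the windows were alike. The *Ndn* window lies inside the *Ndn* gene as GENCODE places it, so RefSeq and GENCODE differ in its start. The *Peg3* window held 13 CG and also contains the start of *Usp29*, which is read in the other direction. The *Mest* window shown held 17, another *Mest* window (chr6:30733256-30733555) held 8, and the median over all 32851 windows was 7. The letters GGGGCCCC, which read the same on both strands and resemble a site of the zinc-finger protein that *Plagl1* encodes, occurred in 1.08% of all windows and, among the members, in the *Peg3* window alone.

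Both *H19* and *Mest* host a microRNA inside the gene. Their mature sequences (RefSeq) are given with the seed, bases 2 to 8, in capitals, because the hosts were the most abundant members in Control cultures. 
miR-675-5p in *H19*, chr7:142577112-142577133: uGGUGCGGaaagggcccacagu
miR-675-3p in *H19*, chr7:142577078-142577099: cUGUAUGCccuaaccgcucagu
miR-335-5p in *Mest*, chr6:30741314-30741336: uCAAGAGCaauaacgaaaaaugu
miR-335-3p in *Mest*, chr6:30741354-30741375: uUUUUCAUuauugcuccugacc
The 4 seeds differ from one another. Mature microRNAs were not measured in these mRNA libraries, and the rows of *Mir675* and *Mir335* were at 0 in every culture.

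The depth ranged from 19733448 to 28192740 counts per culture. Levels below are CPM, that is counts scaled to a common library size by TMM, unless TPM (scaled also by transcript length) is named, and differences are edgeR log2 fold changes with their standard errors (SE). The overexpressed gene *Oscar* had 3 to 4 counts in each Control culture, 173445 to 187278 with Ad-OSCAR and 80766 to 94199 with Ad-OSCAR + 5-ASA. The 10 chondrocyte markers (*Col2a1*, *Acan*, *Sox9* and others) were detected in every group, with a summed level of 42761 to 48579 CPM in Control, 3083 to 3477 in Ad-OSCAR and 3961 to 4427 in Ad-OSCAR + 5-ASA cultures. The annotations do not say whether the cultures of a group came from separate mice, so the tests measure the spread between these cultures.

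*Magel2* encodes a MAGE-family protein that works with a ubiquitin ligase in endosomal recycling. The 3 Control cultures had 146, 145 and 97 counts, or 6.89, 5.96 and 5.13 CPM. The Ad-OSCAR cultures had 0, 0 and 1 counts, and the Ad-OSCAR + 5-ASA cultures 3, 0 and 1. The OSCAR-infected cultures all lay far below the Control range and at or under 3 counts, the floor used here. Scaled for library size, the Control total of 388 counts was 490 times the Ad-OSCAR total of 1 (95% exact counting interval 87.4 to 19396) and 118 times the Ad-OSCAR + 5-ASA total of 4 (45.9 to 437). These intervals cover counting error only. No fold between the Ad-OSCAR groups is given, because every culture of both is at or under the floor, so an effect of 5-ASA on *Magel2* was not detectable at this depth.

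*Ndn* encodes necdin, a MAGE protein that restrains cell division. Its levels were 75.4, 71.3 and 81.9 CPM in Control, 52.7, 56.6 and 53.8 in Ad-OSCAR and 55.1, 51.4 and 54.6 in Ad-OSCAR + 5-ASA cultures. The Ad-OSCAR groups overlapped each other and lay below Control, with a log2 fold change of -0.49 (SE 0.05) for Ad-OSCAR. *Ndn* was thus well expressed in the cultures where its neighbour *Magel2* was at or near 0. Within a culture the TPM of *Magel2*, which is per length, was 0.0493 to 0.0722 of that of *Ndn* in Control and at most 0.00164 in the OSCAR-infected cultures.

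*Peg3* encodes a zinc-finger protein and gives its name to the cluster. It measured 1442, 1395 and 1305 CPM in Control, 248.3, 237.3 and 242.9 in Ad-OSCAR and 257.0, 267.1 and 266.4 in Ad-OSCAR + 5-ASA cultures. The Control cultures were 5.69-fold higher than the Ad-OSCAR cultures, with a log2 fold change of -2.51 (SE 0.05), and no culture of one group reached the range of the other.

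*H19* is a noncoding RNA and the maternally expressed partner of *Igf2*. Its levels of 7046, 6470 and 6551 CPM in Control stood against 189.4, 195.5 and 184.5 in Ad-OSCAR and 318.1, 314.0 and 299.6 in Ad-OSCAR + 5-ASA cultures. The 3 groups did not overlap. Ad-OSCAR gave a log2 fold change of -5.14 (SE 0.05), a 35.2-fold difference, and ranked 35th from the lowest of the 15362 genes tested.

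*Mest*, which encodes an enzyme-like protein of the alpha/beta hydrolase fold, showed the same order of groups. It measured 4488, 4398 and 4436 CPM in Control, 161.0, 199.0 and 165.0 in Ad-OSCAR and 382.1, 407.5 and 367.7 in Ad-OSCAR + 5-ASA cultures. The lowest culture with 5-ASA was above the highest without it, and all were far below Control. Ad-OSCAR against Control gave a log2 fold change of -4.67 (SE 0.07), or 25.4-fold.

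*Cdkn1c* encodes the cyclin-dependent kinase inhibitor p57. It measured 133.6, 110.3 and 122.1 CPM in Control, 18.5, 18.5 and 16.04 in Ad-OSCAR and 18.9, 19.7 and 17.9 in Ad-OSCAR + 5-ASA cultures. The OSCAR-infected groups overlapped and lay far below Control, at a log2 fold change of -2.79 (SE 0.07) for Ad-OSCAR.

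*Plagl1*, a zinc-finger transcription factor, and *Grb10*, an adaptor that dampens insulin and growth factor receptors, had moderate differences. *Plagl1* measured 770.0, 748.2 and 750.0 CPM in Control, 307.1, 302.4 and 312.6 in Ad-OSCAR and 355.1, 362.9 and 348.9 in Ad-OSCAR + 5-ASA cultures. *Grb10* measured 856.1, 860.8 and 856.2, then 392.8, 374.0 and 378.5, then 454.9, 467.1 and 445.0 CPM. For both genes the 3 groups did not overlap, with Ad-OSCAR lowest and Control highest. Their log2 fold changes in Ad-OSCAR were -1.30 (SE 0.04) and -1.17 (SE 0.04).

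*Dlk1* encodes a transmembrane protein of the Notch ligand type, and *Meg3* is the noncoding RNA read from the other parental copy of the same cluster. *Dlk1* measured 25.2, 19.4 and 24.5 CPM in Control, 17.9, 19.9 and 17.1 in Ad-OSCAR and 17.7, 18.2 and 17.6 in Ad-OSCAR + 5-ASA cultures. The Control and Ad-OSCAR values overlapped, since Control culture 2 was below Ad-OSCAR culture 2, and the log2 fold change was -0.33 (SE 0.09). *Meg3* measured 382.9, 404.2 and 361.8 CPM in Control, 297.3, 304.0 and 257.6 in Ad-OSCAR and 353.8, 368.8 and 352.2 in Ad-OSCAR + 5-ASA cultures. Its Ad-OSCAR values were below both other groups, which overlapped each other, and its log2 fold change was -0.42 (SE 0.06).

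**Figure D1:**
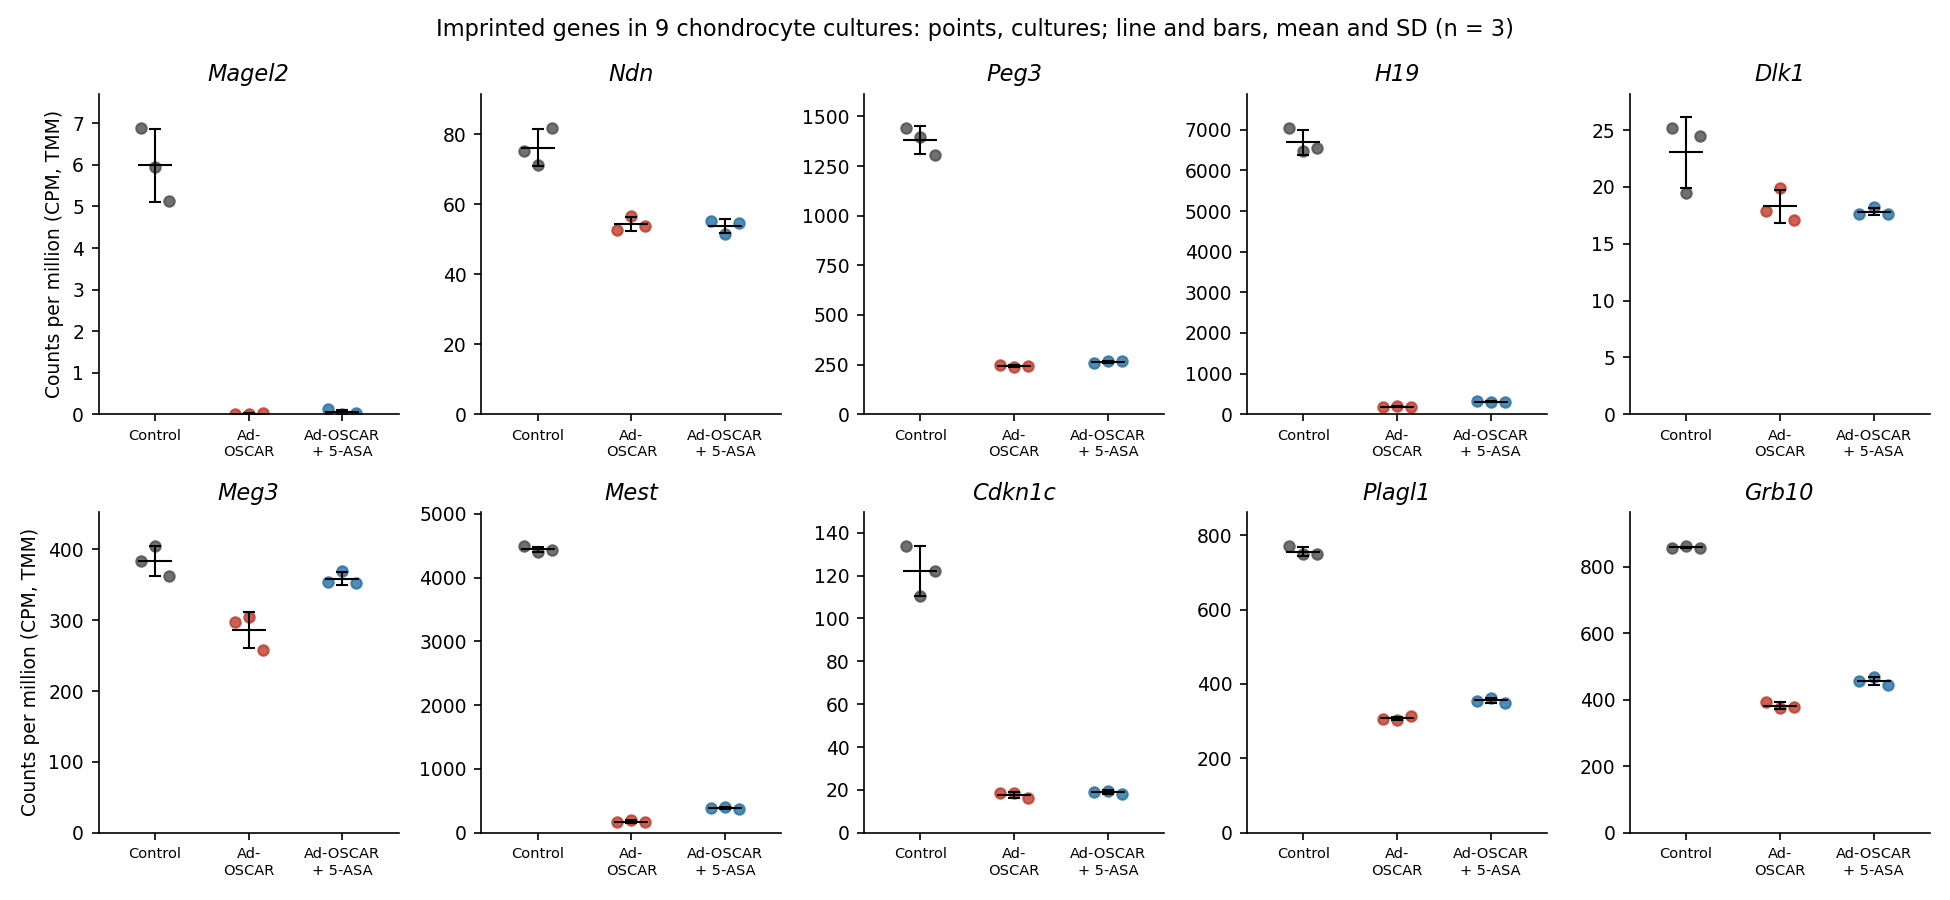
CPM (vertical axes, linear, from 0, a scale for each gene) of the 10 imprinted genes in the 3 groups. Points are cultures, and the line and bars are the mean and SD of 3 cultures. H19 and Mest sit between 4398 and 7046 CPM in Control and at most 407.5 in both OSCAR groups, Magel2 is at or near 0 there, and the group means of Ndn, Dlk1 and Meg3 lie within 1.5-fold.

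By description, all 10 members were lower in Ad-OSCAR than in Control at an adjusted p below 0.05, a call that 32.2% of all 15362 genes tested also received in this direction (32.7% in the other). With the study's stricter criterion of an absolute log2 fold change over 1.5, 5 members were lower (*Magel2*, *Peg3*, *H19*, *Mest* and *Cdkn1c*), against 5.39% of all genes lower and 4.57% higher. Nothing is read from these counts, because this comparison chose *Magel2*. The call of *Dlk1* was lost when log2 TPM was tested with limma. The median log2 fold change of the 10 members was -1.90, and -1.30 over the 9 other than *Magel2*, beside 0.02 for all genes tested.

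The 10 chondrocyte markers were likewise all lower with Ad-OSCAR, as were all 5 proliferation markers, whose summed level was 396.4 to 428.0 CPM in Control and 41.2 to 45.6 in Ad-OSCAR cultures. The 6 fibroblast and synovium markers summed to 15448 to 16579 CPM in Control and 8277 to 8706 in Ad-OSCAR cultures, with 2 higher and 4 lower. The 6 macrophage markers summed to 5.59 to 7.61 and 13.1 to 14.0 CPM, with 2 of 3 tested higher, and *Adgre1* was at 0 in Control. Endothelial (0.423 to 1.04, then 2.09 to 2.80 CPM), adipocyte (10.99 to 14.8, then 28.2 to 31.4 CPM) and skeletal muscle markers (0.423 to 0.575, then 0.102 to 1.11 CPM) were also summed, and the single tested endothelial and adipocyte markers were each higher while that of skeletal muscle was not called. The part of these shifts in the members' values was not tested, and in bulk RNA fewer cells of a type and less RNA per cell cannot be told apart.

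5-ASA was then compared with untreated Ad-OSCAR cultures, a comparison which shares the Ad-OSCAR cultures with the one that chose *Magel2*. By edgeR (quasi-likelihood F test, Benjamini-Hochberg adjusted p over all genes), 5 of the 10 members rose and none fell, where 10.4% of all genes tested rose and 7.38% fell. *Mest* rose 2.21-fold (log2 fold change 1.14, SE 0.06, adjusted p = 4.89e-09) and *H19* 1.64-fold (0.71, SE 0.04, adjusted p = 1.19e-08). *Mest* ranked 84th and *H19* 350th of all genes by this fold change. These were the 2 members with a fold over 1.5 at an unadjusted p below 0.05, which 2.27% of all genes met upward and 1.87% downward. The study words this criterion for treated cultures against Ad-Control, where 7 members met it, all lower, against 15.3% of all genes lower and 14.6% higher.

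Smaller rises passed the test for *Meg3* (log2 fold change 0.32, SE 0.06, adjusted p = 0.000636), *Grb10* (0.26, SE 0.04, adjusted p = 0.000182) and *Plagl1* (0.21, SE 0.04, adjusted p = 0.00106), and in each the treated cultures lay above all untreated ones. These 3 calls were lost when log2 TPM was tested with limma in place of the counts (adjusted p from 0.0791 to 0.561), where their values were 0.24, 0.17 and 0.09 and the median over the same genes shifted by -0.09 from that of edgeR. *Peg3* missed the threshold with 0.12 (SE 0.04, adjusted p = 0.0808), although its groups did not overlap, and passed it with DESeq2 (adjusted p = 0.0261). The values were 0.09 (SE 0.08) for *Cdkn1c*, -0.02 (SE 0.06) for *Ndn* and -0.04 (SE 0.09) for *Dlk1*, with adjusted p of 0.494, 0.876 and 0.838, and each of these 3 directions turned under at least 1 alternative. The median over the 9 members other than *Magel2* was 0.21, and that of all genes was -0.00.

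Beside these rises, *Oscar* itself was lower with 5-ASA than without, at 2946 to 3723 against 6354 to 7112 CPM (log2 fold change -0.97, SE 0.06, adjusted p = 1.76e-08 by edgeR), and 6 of the 10 chondrocyte markers rose. Of the fibroblast and synovium markers 4 of 6 rose and 1 fell, to a sum of 9705 to 10282 CPM, and 2 of 5 proliferation markers fell, to a sum of 36.0 to 38.6 CPM. Of 3 tested macrophage markers 1 fell, to a sum over the list of 11.7 to 11.9 CPM, as did the single tested endothelial marker, to 1.35 to 1.79 CPM over its list, while those of adipocytes and skeletal muscle were not called. Their part in the members' changes was not tested. The comparison of treated cultures with Control shares the Control cultures with the first one. In it 9 members were lower in edgeR's test, where 31.8% of all genes were lower and 31.4% higher. Nothing is read from this count, because *Magel2* is among the 9 and these Control cultures took part in its choice. *Mest* was 11.5-fold (log2 fold change -3.52, SE 0.07, adjusted p = 6.17e-18) and *H19* 21.5-fold lower (-4.43, SE 0.05, adjusted p = 4.62e-21). *Peg3* was 5.24-fold and *Cdkn1c* 6.47-fold lower. *Meg3*, at -0.10 (SE 0.06, adjusted p = 0.155), was the member that did not pass, and *Dlk1* lost its call in 2 of the 3 limma tests of log2 TPM (adjusted p = 0.0534 and 0.0858).

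**Figure D2:**
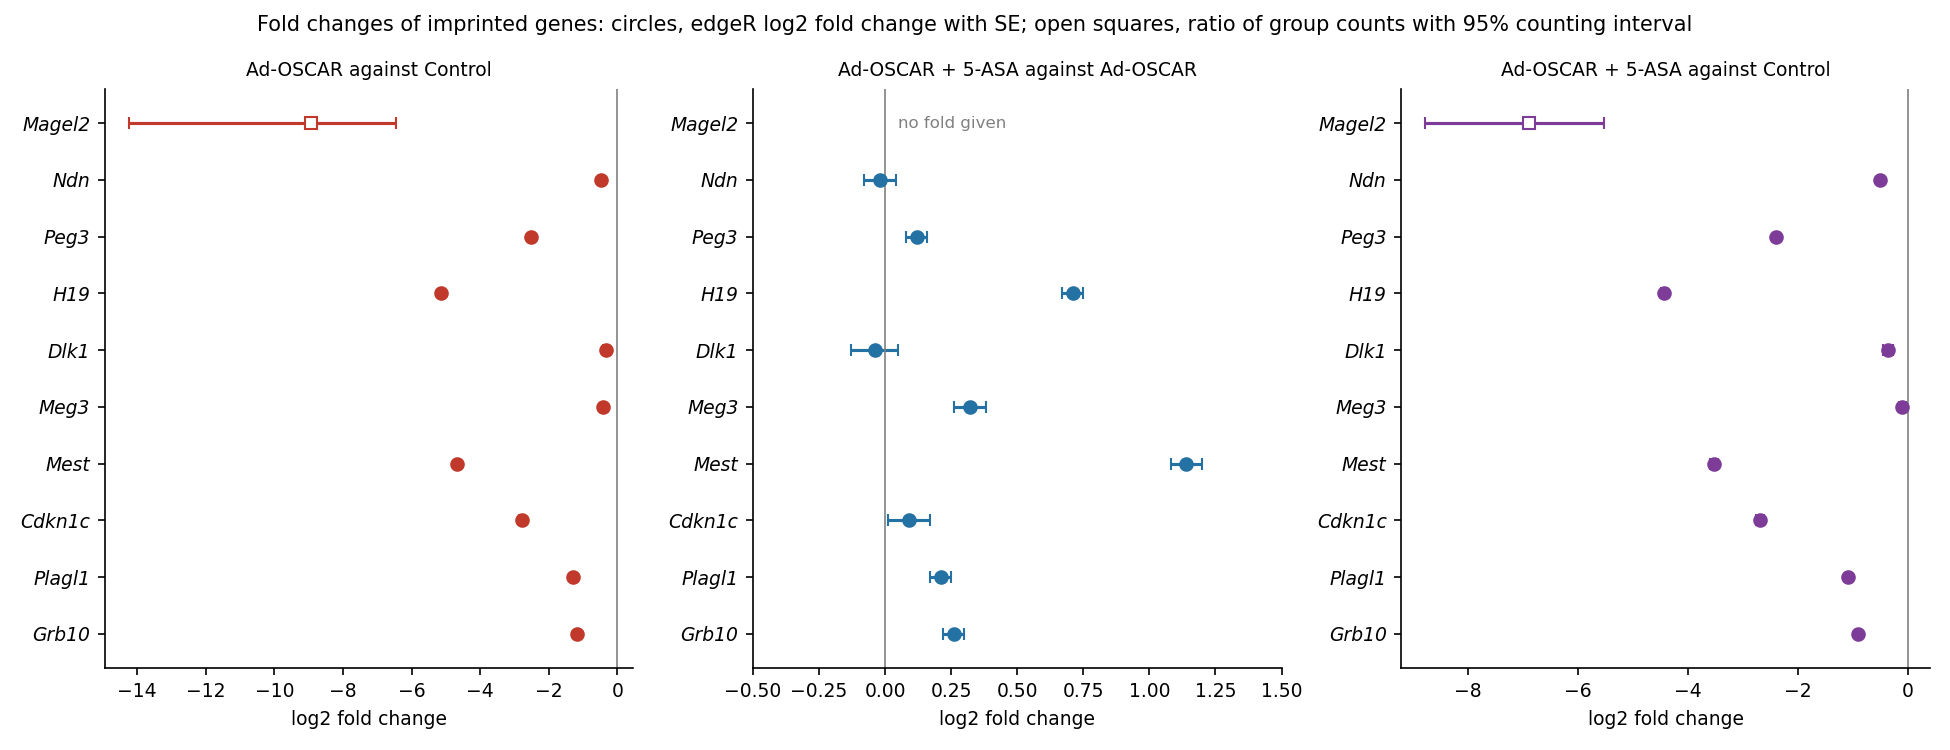
Log2 fold change (horizontal axes, a scale for each panel) of the 10 genes in the 3 comparisons. Circles with bars are edgeR values with SE, and open squares are ratios of Magel2 group counts with a 95% counting interval. Magel2 has no fold in the middle panel, where Mest at 1.14 and H19 at 0.71 lie furthest to the right of the 9 genes shown, while in the outer panels they remain far left of 0.

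On the TPM scale, where genes can be set side by side, the order of the members differed between groups. In Control cultures it ran from *H19* (5514 ± 237.7 TPM, SD, n = 3) through *Mest* (3207 ± 44.9), *Meg3* (449.2 ± 30.8), *Plagl1* (351.4 ± 8.91), *Grb10* (305.2 ± 3.57), *Peg3* (277.2 ± 14.4), *Cdkn1c* (167.2 ± 20.7), *Ndn* (35.8 ± 2.32) and *Dlk1* (26.5 ± 3.31) to *Magel2* (2.22 ± 0.33), with no overlap between neighbours in that order. In Ad-OSCAR cultures *Meg3* led with 355.9 ± 36.7 TPM, ahead of *H19* with 159.1 ± 2.87. *Plagl1*, *Grb10* and *Mest* followed at 140.8 ± 7.24, 137.4 ± 2.99 and 129.0 ± 14.0 and overlapped. *Cdkn1c* at 25.4 ± 3.80 overlapped both *Ndn* at 26.0 ± 0.534 and *Dlk1* at 21.7 ± 1.24, which did not overlap each other. With 5-ASA *Mest* (264.9 ± 11.4 TPM) stood ahead of *H19* (245.8 ± 3.68) without overlap, and *Meg3* stayed first with 420.0 ± 5.31. There *Grb10* and *Plagl1* overlapped at 154.4 ± 2.73 and 149.9 ± 5.98, as did *Cdkn1c* and *Ndn* at 24.9 ± 3.12 and 24.1 ± 1.07. *Cdkn1c* also overlapped *Dlk1* at 21.25 ± 1.45. The members together held 1.01% to 1.07% of all TPM in Control, 0.0996% to 0.108% in Ad-OSCAR and 0.134% to 0.138% in Ad-OSCAR + 5-ASA cultures. A single gene, *Saa3*, held 3.12% to 3.22%, 12.7% to 13.3% and 14.3% to 15.2% of TPM in these groups, which lowers the TPM of every other gene.

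The neighbours of the members are described next for Ad-OSCAR against Control, again without p-values. In the Prader-Willi region, *Snrpn*, which encodes a splicing protein, had a log2 fold change of 0.71 (SE 0.07) and *Mkrn3*, a ring-finger gene, of 0.92 (SE 0.34) from 7 to 10 counts per Control culture. *Peg12* had -0.67 (SE 0.21) and *Ube3a*, a ubiquitin ligase gene, 0.10 (SE 0.06). These 4 neighbours of *Magel2* thus lay on both sides of Control. In the *Peg3* cluster all 3 genes were low, with -4.07 (SE 0.09) for *Zim1* and -2.65 (SE 0.12) for *Usp29* beside -2.51 for *Peg3*.

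In the *H19* and *Cdkn1c* region, the growth factor gene *Igf2* had a log2 fold change of -1.46 (SE 0.05), much smaller than that of *H19*. The ratio of *H19* to *Igf2* in TPM was 0.982, 1.05 and 0.934 in Control, 0.0809, 0.0703 and 0.0737 in Ad-OSCAR and 0.108, 0.111 and 0.0982 in Ad-OSCAR + 5-ASA cultures. The 2 RNAs were thus near equal in Control cultures only. The noncoding *Kcnq1ot1* had -0.61 (SE 0.11), *Slc22a18* had 0.17 (SE 0.21), and *Phlda2*, with at most 2 counts in any culture, was not tested.

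In the Dlk1-Dio3 cluster every tested gene had a value below 0. The noncoding RNAs *Rian* and *Mirg* had -0.98 (SE 0.05) and -0.66 (SE 0.09), the deiodinase gene *Dio3* -1.63 (SE 0.12) and *Rtl1* -2.02 (SE 0.32), the last from 7 to 9 counts per Ad-OSCAR and 23 to 30 per Control culture. *Dlk1* and *Meg3* therefore had the values nearest to 0 in their cluster. Within cultures the ratio of *Dlk1* to *Meg3* in TPM was 0.0470 to 0.0658 in Control and 0.0588 to 0.0648 in Ad-OSCAR cultures, which overlap. With 5-ASA it was 0.0469 to 0.0526, below the Ad-OSCAR range and overlapping that of Control. Beside *Mest*, *Klf14* (a transcription factor gene) had -5.01 (SE 0.18), while *Copg2*, a vesicle coat gene whose end overlaps that of *Mest* on the other strand, had -0.62 (SE 0.05). Whether strand was used in counting is not given in the sources used here, so reads in that overlap, and those of *Kcnq1ot1* and *Rtl1*, which have antisense partners, may be shared.

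**Figure D3:**
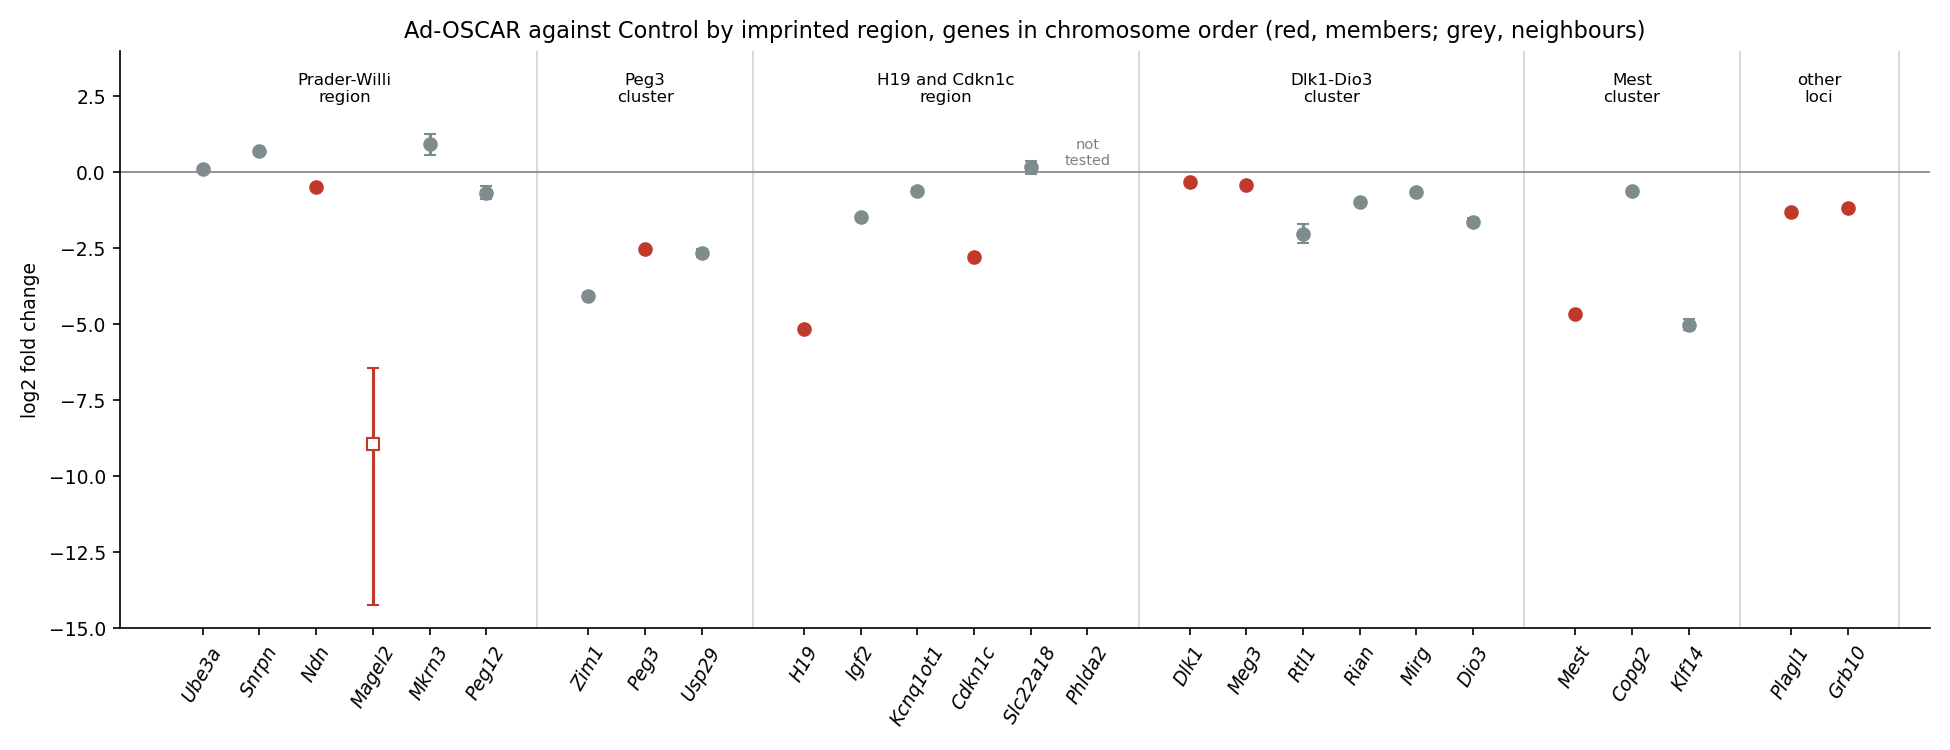
Log2 fold change of Ad-OSCAR against Control (vertical axis) for the members (red) and their imprinted neighbours (grey), in chromosome order within each region. Circles with bars are edgeR values with SE, and the open square is the Magel2 count ratio with its 95% counting interval. All 3 genes of the Peg3 cluster lie below -2, whereas around Magel2 the neighbours lie between -0.67 and 0.92.

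**Figure D4:**
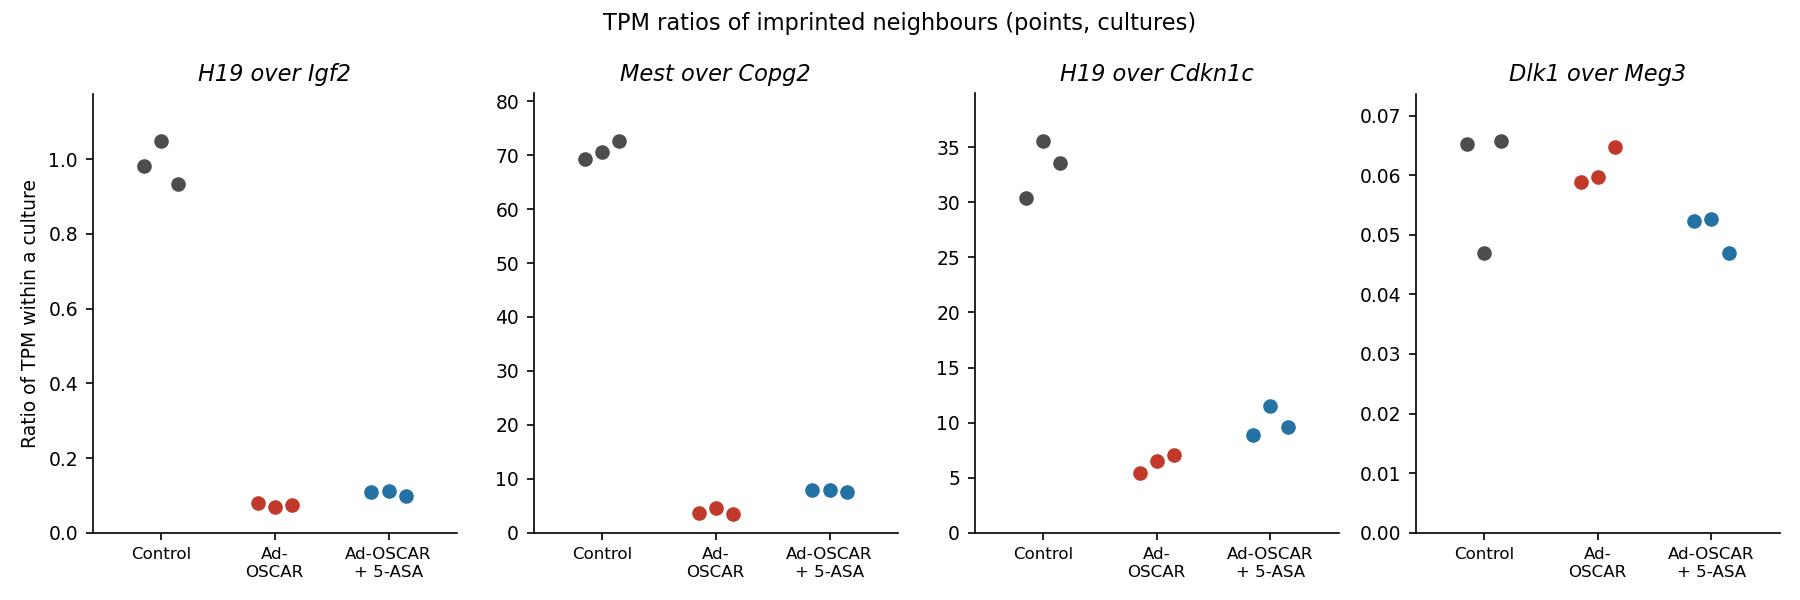
Ratio of TPM of gene pairs within each culture (vertical axes from 0, a scale for each pair), with 1 point per culture. H19 over Igf2 is 0.934 to 1.05 in Control and at most 0.111 in the OSCAR groups, whereas Dlk1 over Meg3 overlaps between Control and Ad-OSCAR.

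Of 51 further imprinted genes on a list of known mouse imprinted genes, 45 passed the filter on low counts. In Ad-OSCAR against Control 10 were higher and 23 lower, where 32.7% and 32.2% of all genes were, with a median log2 fold change of -0.30 beside 0.02 for all genes. Among the genes not already described as neighbours, the largest differences were those of *Cobl* (-3.01, SE 0.10), *Peg10* (-2.92, SE 0.06), *Slc38a4* (-2.78, SE 0.13) and *Ddc* (-2.70, SE 0.43). *Ddc* had 14 to 17 counts per Control and 2 to 4 per OSCAR-infected culture, around the floor, so its fold and rank are uncertain. *Peg10* is a retrotransposon-derived gene needed in the placenta, and *Slc38a4* encodes an amino acid transporter, while *Cobl* and *Ddc* lie beside *Grb10* on chromosome 11. With 5-ASA against Ad-OSCAR 4 of the 45 rose and 2 fell, where 10.4% and 7.38% of all genes did, and 0 rose when log2 TPM was tested with limma. The risers were *Igf2* (0.22, SE 0.05), *Rian* (0.26, SE 0.05), *Gab1* (0.27, SE 0.06) and *Sgce* (0.26, SE 0.05), and *Zrsr1* (-0.37, SE 0.09) and *Blcap* (-0.20, SE 0.05) fell, all 6 at adjusted p between 0.00103 and 0.00677 in edgeR's test. The count of risers was 7 without Ad-OSCAR replicate 2, and that of genes that fell was 1 without Ad-OSCAR replicate 1. Against Control, the treated cultures had 10 of the 45 higher and 19 lower, where 31.4% and 31.8% of all genes were, with a median of -0.11. Of the genes not already described as neighbours, *Peg10* (-3.03, SE 0.06), *Cobl* (-2.84, SE 0.10), *Ddc* (-2.65, SE 0.43, from the same low counts) and *Slc38a4* (-2.37, SE 0.12) were then furthest from 0.

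The mean transcript length that RSEM reports for a gene moves with the mix of its isoforms, and was not used to choose the members. For *Peg3* it was 8380 to 8390 bases in Control, 8127 to 8224 in Ad-OSCAR and 8102 to 8200 in Ad-OSCAR + 5-ASA cultures, so that both OSCAR-infected groups lay below Control. For *Plagl1* it was 3687 to 3792 bases in Control, 3796 to 3926 in Ad-OSCAR and 3807 to 4040 with 5-ASA, a gap to Control of only a few bases. For *Meg3* it was 1578 to 1611 bases in Control, 1497 to 1587 in Ad-OSCAR and 1514 to 1546 with 5-ASA. Only the treated *Meg3* values thus lay apart from Control. The lengths of *H19* (2160 to 2204 bases over all cultures) and *Mest* (2439 to 2497) overlapped between groups. Those of *Dlk1*, *Cdkn1c* and *Grb10* did so too, and *Magel2* and *Ndn* have 1 length each, 4631 and 3694 bases. The share of all genes whose lengths separate in this way was not computed. With 3 cultures a side an exact permutation test cannot go below a two-sided p of 0.10, and none was made.

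The 5 tested genes whose levels over the 9 cultures were most like those of *Magel2*, by the root mean square difference of centred log2 CPM, were *Msmp* (0.40), *Acan* (0.41), *Fzd9* (0.43), *Matn1* (0.48) and *Snorc* (0.51), where the median over all genes was 2.79. *Acan*, which encodes the aggrecan core protein of cartilage, measured 2321 ± 146.3 CPM in Control, 27.9 ± 1.39 in Ad-OSCAR and 33.7 ± 2.21 in Ad-OSCAR + 5-ASA cultures (SD, n = 3). *Matn1*, a cartilage matrix protein gene, measured 79.6 ± 11.1, 1.08 ± 0.0737 and 0.994 ± 0.212 CPM. *Msmp* had 64 to 71 counts in Control and at most 2 in any OSCAR-infected culture, and overlaps *Rgp1* on the other strand. Likeness was computed over the same cultures in which *Magel2* was noticed, and is a description. A prior count of 2 was added before the log. Since *Magel2* was at or under the floor in every OSCAR-infected culture, its values there are largely set by this prior. The distances and the order of these genes depend on it.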

How the data were processed

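RNA-seq of 9 cultures was used. The authors trimmed 2 × 100 base reads of stranded mRNA libraries with BBDuk, aligned them to GRCm38 with STAR 2.7.1a and quantified genes with RSEM 1.3.1. The deposited files hold estimated counts, which RSEM divides between genes that share reads and which need not be whole, TPM and a mean transcript length. Whether counting used the strand is not given in the sources used here. Symbols and coordinates are those of GENCODE M21, which held 55144 of the 55471 identifiers with the version dropped.

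Estimated counts were rounded and fitted in R 4.3.3 with edgeR 4.0.16 (TMM, filterByExpr by group, quasi-likelihood F test) in a single model of group over the 9 cultures. Of the genes, 15362 passed the filter, all 10 members among them, and p-values were adjusted by Benjamini-Hochberg over these genes. The SE was obtained from the log2 fold change and the square root of F. The floor was 3 counts per culture, and the *Magel2* ratio used group counts over summed effective library sizes with a Clopper-Pearson interval. The script was tested on simulated data. Alternatives were RLE scaling, DESeq2 1.42.0, no filter, a minimum of 10 counts in each culture, models of just the 2 groups at issue, a replicate block, each culture left out, and limma 3.58.1 on log2(TPM + 0.1) and log2(TPM + 1), the former also without its filter on low values. Figures were made with Python 3.11.15 and matplotlib 3.10.9.

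The members and lists were chosen with earlier results of these data known. The genes named are the members, their listed cluster neighbours, the 4 other imprinted genes with the largest change past the threshold in each comparison, the 5 genes nearest to *Magel2* and *Oscar*. *Saa3*, *Rgp1*, *Mir675*, *Mir335* and a few markers are named beside them.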

Additional observations from a re-analysis of the deposited data

How the results depend on the processing

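The 30 member fold changes were recomputed under 18 alternatives. Of 536 values, 515 kept their direction and side of the threshold, 14 kept the direction and were no longer past it, 1 came to pass it and 6 turned. The values that turned were all for 5-ASA against Ad-OSCAR in genes that did not pass the test, *Ndn* at 0.01 without Ad-OSCAR replicate 2 and without Ad-OSCAR + 5-ASA replicate 2, *Dlk1* at 0.02 without Ad-OSCAR replicate 2 (over the cultures left out in turn, from -0.04 to 0.01 for *Ndn* and from -0.09 to 0.02 for *Dlk1*), and *Cdkn1c* at -0.03 in each limma fit of TPM. In those fits the members that rose with 5-ASA numbered 2 (*Mest* and *H19*) in place of 5. The other imprinted genes that rose numbered 0, and those that fell 1 with a pseudocount of 0.1 and 0 without the filter. When each culture was left out the risers among them numbered from 3 to 7 and the genes that fell from 1 to 3. *Dlk1* lost its call in Ad-OSCAR against Control under the 3 limma fits (-0.28, -0.27 and -0.28) and in Ad-OSCAR + 5-ASA against Control under 2 of them (-0.31 in both). *Magel2* had no value with at least 10 counts in every culture, since this filter removes it, and none for 5-ASA against Ad-OSCAR in the fit of only these 2 groups. Same-numbered cultures of different groups did not deviate together (correlations from -0.07 to 0.04). With 3 cultures a group this cannot exclude that the numbers pair the cultures. A replicate block changed no call of the members, with 5 members higher and 0 lower for 5-ASA against Ad-OSCAR. The depth limits *Magel2*, which had at most 3 counts in any OSCAR-infected culture.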
